A study of Homo sapiens with 42 samples.

Results

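Contacts of a chromosome 9 region with chromosome 22 and with the end of the long arm of chromosome 9 were examined in K562 cells. These are the chromosomes joined by the BCR-ABL1 rearrangement. Members were all deposited contact positions on chromosome 22 and all positions on chromosome 9 from 130 Mb onward (hg19), here called the 9q end. Of 686700 contact lines in 42 libraries, 1108 fell on chromosome 22 and 1707 in the 9q end, 2815 in all. The edges were set by the member rule at 23.6 Mb on chromosome 22 for BCR and at 133.6 Mb on chromosome 9 for ABL1. Below and above an edge mean lower and higher coordinates.

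In chronic myeloid leukaemia, a reciprocal translocation between chromosomes 9 and 22 joins the first part of BCR, a gene for a signalling protein with kinase and GTPase-regulating domains, to most of ABL1, a gene for a tyrosine kinase. The fused gene lies on the shortened chromosome 22, the Philadelphia chromosome, and encodes a kinase that is constantly active. K562 was derived from a patient with this leukaemia and is known to carry extra copies of the fused segment. In contact assays, a segment present in more copies gives more ligation products, and a segment on the same chromosome as the viewpoint usually gives more than one on another chromosome.

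All 21 groups were K562 cells with a FUCCI reporter, a fluorescent marker of cell-cycle phase, knocked in at AAVS1, and no group lacked the reporter or received another treatment. Hoechst staining of DNA was used to sort growing cells into G1 and the S-phase fractions S1 to S6. In each of the 7 fractions, contacts were read from 3 primers on chromosome 9, Proximal and Distal inside a fountain-like contact structure and Outside beyond it, with 2 libraries per primer and fraction. Separate cultures are not stated for the paired libraries of a group. The spread that p-values measure here may therefore be technical. Copy number was not measured in these files, so more copies and more contacts per copy cannot be told apart.

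Every library held 16350 lines, so depth before this equalisation is unknown. A viewpoint is the position with most lines for a primer. The viewpoints lay 18.4 Mb (Proximal), 18.5 Mb (Distal) and 18.9 Mb (Outside) below the start of the 9q end. Trans lines, those on any chromosome other than 9, numbered 1225 to 2196 per library, and chromosome 9 lines over 2 Mb from the viewpoint, called far lines, numbered 1391 to 3461. Chromosome 22 had 9 to 54 lines per library and the 9q end 12 to 131. Intervals below are exact 95% intervals that cover counting error only. Between the 2 libraries of a group, chi-square per degree of freedom ranged from 0.971 to 4.99, so some groups varied more than counting error. Intervals of pooled lines can therefore be too narrow.

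Contacts with chromosome 22 changed abruptly at the BCR edge. The 1 Mb just below it, chr22:22600001-23600000, held 145 lines (95% interval 122 to 171), more than any other 1 Mb bin of the chromosome counted from that edge. The 1 Mb just above, chr22:23600001-24600000, held 19 lines (11.4 to 29.7), so the lower bin had 7.63 times as many (4.71 to 13.04). The lower bin was higher in 33 of 42 libraries and equal in 8. Proximal had 54 lines below and 1 above, Distal 44 and 10, and Outside 47 and 8. All 3 primers thus had fewer lines above the edge.

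Farther below the edge the bins were uneven. Moving away from BCR, the next bins held 110, 55, 35 and 89 lines. The 89 lines lay in chr22:18600001-19600000, the bin with the third highest count after the 145 and 110 next to BCR. Above the edge, the 4 bins that followed the first held 20, 29, 16 and 22 lines. Over the whole bins of the chromosome, the 7 below the edge held 35 to 145 lines (median 64) and the 27 above it held 9 to 33 (median 19), so the 2 ranges did not overlap. The lowest count, 9 lines, was in chr22:46600001-47600000. The next lowest, 11 lines each, were in chr22:39600001-40600000, chr22:44600001-45600000 and chr22:49600001-50600000. When repeats of a position within a library were counted once, the bins on either side of the edge held 100 and 19 lines, a ratio of 5.26 (3.20 to 9.11).

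**Figure D1:**
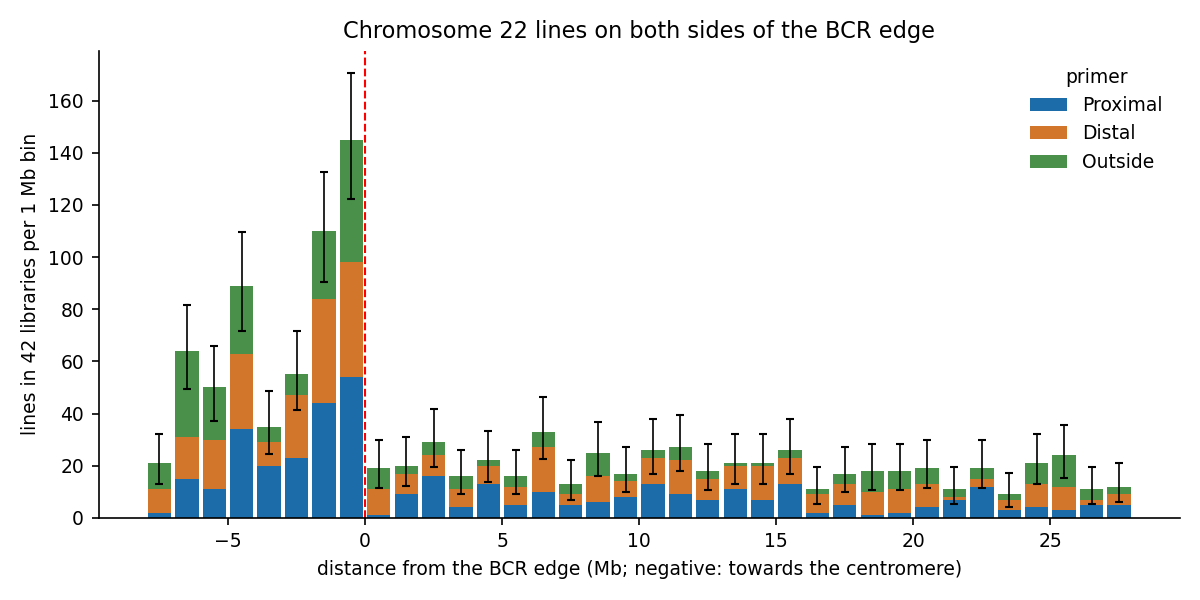
Lines on chromosome 22 in 1 Mb bins (vertical axis, lines summed over 42 libraries) by distance from the BCR edge in Mb (horizontal axis, dashed line at the edge). Bars are stacked by primer, whiskers are exact 95% counting intervals of the total, and the outermost bins are partly filled; the bin just below the edge held 145 lines and the bin just above it 19.

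At finer scale, the 10 bins of 100 kb below the edge held 8 to 20 lines each (median 14) and the 10 above it 1 to 6 (median 1). The position that best divided chromosome 22 into 2 levels, by Poisson likelihood, lay between 23688913 and 23689850. Positions from 23581924 to 23689850 were within 1.92 log-likelihood units of it, a range that includes the 23.6 Mb edge. The level was 75.7 lines per Mb before it and 19.4 after it. Fitted to 1 primer at a time, the best division lay between 23553936 and 23581924 for Proximal, between 23638343 and 23674954 for Distal and between 23688913 and 23689850 for Outside. This fit was chosen after the profile had been seen, and counts of DpnII sites, which set where a line can fall, were not used here.

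The size of the BCR step was set beside the other boundaries between adjacent 1 Mb bins of chromosomes 19 to 22. On the log2 scale the step was 2.93, and 0 of 175 other boundaries with at least 10 lines had a step as large in either direction (median size 0.42, largest 2.57). The largest was at 24 Mb on chromosome 22, between bins of 101 and 17 lines that overlap those at the BCR edge. It is therefore not a separate boundary for comparison. On all chromosomes other than 9, 3 of 2399 boundaries were at least as large in either direction. With 3 Mb on each side the BCR step was 2.19, and 6 of 188 boundaries of chromosomes 19 to 22 were at least as large in either direction, 3 of them in the same direction. With 5 Mb it was 2.03, and 8 of 184 were, 7 of them in the same direction. These ranks are a description with no test.

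In a count of 1 Mb bins starting at whole Mb, chromosome 22 from 22 to 23 Mb held 136 lines and ranked 5 of 2789 trans bins, whose median was 22 lines. The bin from 23 to 24 Mb, which spans the BCR edge, held 101 lines and ranked 9, and the bin from 19 to 20 Mb held 83 and ranked 13. Of the 40 trans bins with most lines, 5 were on chromosome 22, and all 5 lay below 24 Mb. Chromosome 22 had 36 of the 2789 trans bins. With repeats within a library counted once, 6 of the top 45 bins (ties included) were on chromosome 22, all below 24 Mb. No single position accounted for these counts, since the most frequent one held 5 lines from 22 to 23 Mb and 5 from 23 to 24 Mb.

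Taken whole, chromosome 22 was close in line density to chromosomes 19 and 20 and below chromosome 21. Density is given as lines per Mb per 1000 trans lines, with length counted as the Mb that held a line. It was 0.468 ± 0.152 (SD, n = 42) for chromosome 22, from 0.114 to 0.732. It was 0.419 ± 0.149 for chromosome 19, 0.436 ± 0.0933 for chromosome 20 and 0.559 ± 0.135 for chromosome 21. Chromosome 22 was higher than chromosome 19 in 28 of 42 libraries, a mean difference of 0.0496 that did not pass the threshold (adjusted p = 0.0931, sign-flip permutation test over libraries, two-sided). It passed without Proximal S6 replicate 1 (adjusted p = 0.00894) or without Outside S3 replicate 1 (adjusted p = 0.0328), by the same permutation test. The difference from chromosome 20 was 0.0320, higher in 23 of 42 (adjusted p = 0.244, same permutation test). The difference from chromosome 21 was -0.0909, and chromosome 22 was higher in 11 of 42 libraries (adjusted p = 0.0262, same permutation test). By the same permutation test, that call was lost with Proximal alone (difference -0.0393, adjusted p = 0.440) and with G1 alone (-0.0515, adjusted p = 0.345). It was also lost with replicate 1 alone (adjusted p = 0.337) or replicate 2 alone (adjusted p = 0.0554, same permutation test). The direction turned with Distal alone (0.0339, adjusted p = 0.502, same permutation test).

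Divided at the BCR edge, the chromosome split into a dense and a sparse stretch. The density was 1.09 ± 0.446 below the edge and 0.291 ± 0.146 above it, 3.74 times higher below, and it was higher below in 42 of 42 libraries. The stretch below was 2.60 times as dense as chromosome 19, 2.50 times as chromosome 20 and 1.95 times as chromosome 21, and was the higher in 40, 41 and 38 of 42 libraries. The stretch above was 0.695, 0.667 and 0.521 times as dense as chromosomes 19, 20 and 21, and was higher than them in 8, 9 and 5 of 42 libraries. All 6 differences passed the sign-flip permutation test (adjusted p = 1e-05 for each comparison of the lower stretch, the smallest it can give, and at most 2e-05 for the upper). This division was added after the whole chromosome had been compared. The libraries share cells and primers, so here and for the whole chromosome the sign-flip test covers the spread between libraries only. It compares fixed regions that differ in sequence, so its small p-values do not test the edge itself.

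**Figure D2:**
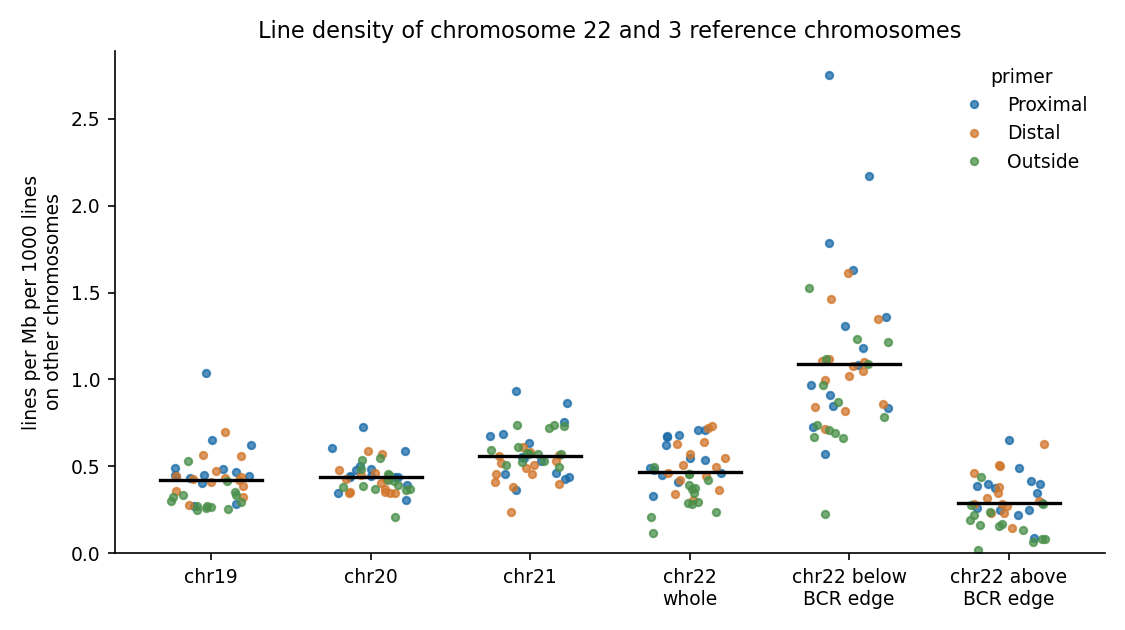
Lines per Mb per 1000 trans lines (vertical axis) in each of the 42 libraries, coloured by primer, for chromosomes 19, 20, 21 and 22 and for chromosome 22 below and above the BCR edge; black bars are means and the sideways scatter of points has no meaning. The points below the edge average 1.09 and those above it 0.291.

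Unlike BCR, the ABL1 edge was crossed by a modest rise. The 5 bins below it, moving away from ABL1, held 143, 141, 176, 240 and 469 lines, and the 5 above it held 247, 249, 130, 114 and 137. The last 2 of the lower bins lie wholly or partly outside the 9q end. Between the bins next to the edge, chr9:132600001-133600000 and chr9:133600001-134600000, lines rose 1.73-fold (95% interval 1.40 to 2.14), with the upper bin higher in 31 of 42 libraries and equal in 2. The rise was 1.20-fold for Proximal (0.863 to 1.67), 2.00-fold for Distal (1.40 to 2.89) and 2.68-fold for Outside (1.67 to 4.43), so the interval for Proximal included no change.

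Rises of this size were also found elsewhere on the chromosome. On the log2 scale the ABL1 rise was 0.79, and 11 of 104 other far boundaries of chromosome 9 rose at least as much with increasing coordinate. Those boundaries lay on both sides of the viewpoints. Counts climb with coordinate towards the viewpoints from below and fall beyond them, where ABL1 lies. The rank therefore does not show how rare such a rise is on the ABL1 side, which was not counted alone. With 5 Mb on each side the direction turned, to -0.41, as the bins nearer the viewpoints held more lines. Within 3 Mb on each side of the edge, the best division into 2 levels was a fall between 135872555 and 135875109, from 194 to 88.3 lines per Mb. It was also a fall in S alone, at 135842910 to 135845973, whereas in G1 alone it was a rise at 133072461 to 133288398, from 34.2 to 73.4 lines per Mb. Within 2 Mb, a window chosen after the pooled result, the best division was a rise between 133293967 and 133315399, from 129 to 244 lines per Mb. Positions of near-equal likelihood ran from 133268335 to 133317840, the latter a position with 8 lines from 1 library. When repeats within a library were counted once, they ran to 133596714. Neither range reached 133.6 Mb, but the second ended just short of it, and the member rule places ABL1 only near that edge. The ranges of Outside alone (133268335 to 133654550) and of S alone (133268335 to 133634658) did include it. The best division in that window lay at 133982124 to 134040988 for Proximal, at 133331629 to 133429399 for Distal and at 133605372 to 133631527 for Outside, so the primers differed in its place. With 1 Mb on each side, the lines showed a step at the BCR edge larger than any other compared on chromosomes 19 to 22. At the ABL1 edge they showed a smaller rise, whose place differed between primers.

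Other bins of the 9q end gave the following picture. The bins with most lines were the 2 just above the ABL1 edge, with 249 and 247, and chr9:130600001-131600000, with 176. Of the whole bins, the fewest lines were 60, in chr9:138600001-139600000, and 103, in chr9:139600001-140600000. The last bin of the chromosome, only partly filled, held 99. Above the edge the counts thus fell from 249 to 60 and did not fall evenly, with 137 lines in chr9:137600001-138600000.

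**Figure D3:**
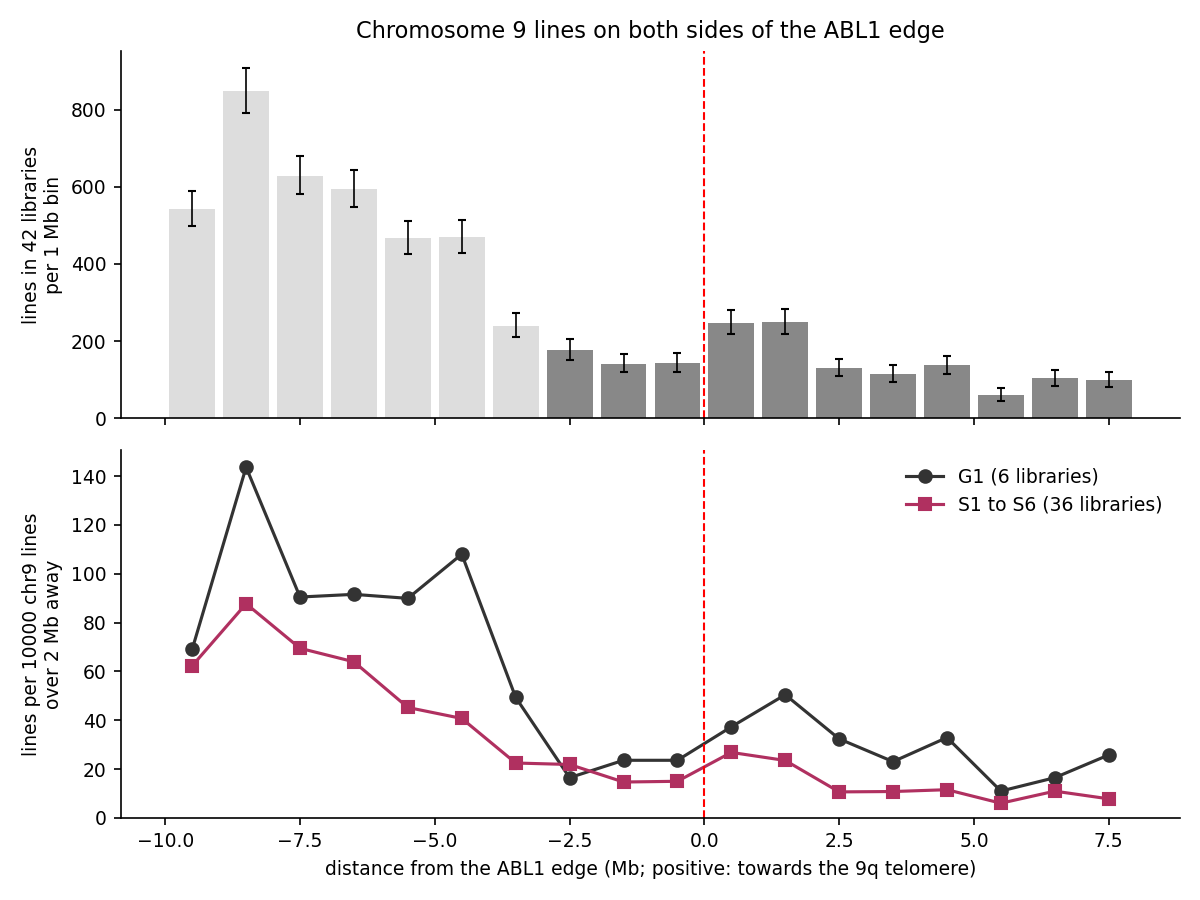
Top: lines per 1 Mb bin of chromosome 9, summed over 42 libraries, by distance from the ABL1 edge in Mb (dashed line), with exact 95% counting intervals; dark bars lie wholly in the 9q end and light bars wholly or partly outside it. Bottom: the same bins as lines per 10000 far chromosome 9 lines in G1 (6 libraries) and S (36 libraries). The bin just above the edge held 37.3 per 10000 in G1 and 26.8 in S.

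The 9q end was also sparse beside stretches at the same distances on the other side of the viewpoints. Those lower-side stretches held 4996 lines against 1707 in the 9q end, 2.93 times as many (95% interval 2.77 to 3.09), and more in 42 of 42 libraries. The ratio was 1.84 for Proximal, 2.80 for Distal and 4.97 for Outside. It was 2.17 in G1 and 3.31 in S. A comparison of distances on both sides was added after the profile had been seen.

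The 9q end held a larger share of far contacts in G1 than in S. As a percentage of far chromosome 9 lines, the Proximal G1 libraries had 4.74% and 4.50%, and the 12 Proximal S libraries ranged from 1.62% to 2.95% (median 2.33%). The Distal G1 libraries had 2.50% and 2.86%, and the S libraries 0.873% to 2.58% (median 1.27%). The Outside G1 libraries had 1.85% and 2.77%, and the S libraries 0.613% to 1.97% (median 1.19%). Proximal groups did not overlap, whereas 1 Distal and 2 Outside S libraries lay within the range of G1 or above its lower value. In all, 33 of 36 S libraries were below both G1 libraries of their primer.

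The mean share fell by 1.496 points, from 3.20% in G1 to 1.71% in S, 0.533 times the G1 value. The exact permutation test with G1 labels permuted within primer gave an adjusted p of 5.18e-05 over 13 blocks of about 10 Mb (two-sided). Of these blocks, 46.2% passed the threshold in either direction and 30.8% (4 of 13) were lower in S. The 9q end had the lowest ratio of S to G1 among the 13, ahead of the block from 90 to 100 Mb (0.741) and the neighbouring block from 120 to 130 Mb (0.768). Whether the 9q end differed from those blocks in its ratio was not tested. Within single primers the fall was 2.30 points for Proximal (p = 0.011, exact, the smallest p that 2 against 12 libraries can give), 1.14 for Distal (p = 0.022, exact) and 1.05 for Outside (p = 0.033, exact). Adjusted over the 13 blocks, these were 0.0714, 0.0357 and 0.143, so only Distal passed the threshold when primers were taken alone. With S4 alone against G1 the adjusted p was 0.0802 (exact permutation test). Whether the change differed between primers was not tested. The block from 100 to 110 Mb rose from 32.6% to 40.8% of far lines, which by itself lowers the shares of other blocks. The 9q end difference was -1.80 points among chromosome 9 lines over 5 Mb away and -4.81 among those from 120 Mb on. Both passed the threshold (adjusted p at most 0.00146, exact permutation test).

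The fall was larger when the share was taken of all lines more than 20 kb from the viewpoint. The mean was 0.789% in G1 and 0.249% in S, and all 36 S libraries lay below both G1 libraries of their primer. Proximal G1 libraries had 1.24% and 1.16% against 0.236% to 0.507% in S, Distal 0.606% and 0.723% against 0.125% to 0.300%, and Outside 0.416% and 0.588% against 0.0848% to 0.314%. The difference of -0.540 points had an adjusted p of 2.16e-06 (exact permutation test). On this scale 84.6% of the blocks passed the threshold, as far chromosome 9 lines as a whole went from 24.1% of these lines in G1 to 14.2% in S in the pooled libraries. The ratio of S to G1 was 0.316 for the 9q end, the lowest of the 13 blocks, whose median was 0.556.

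**Figure D4:**
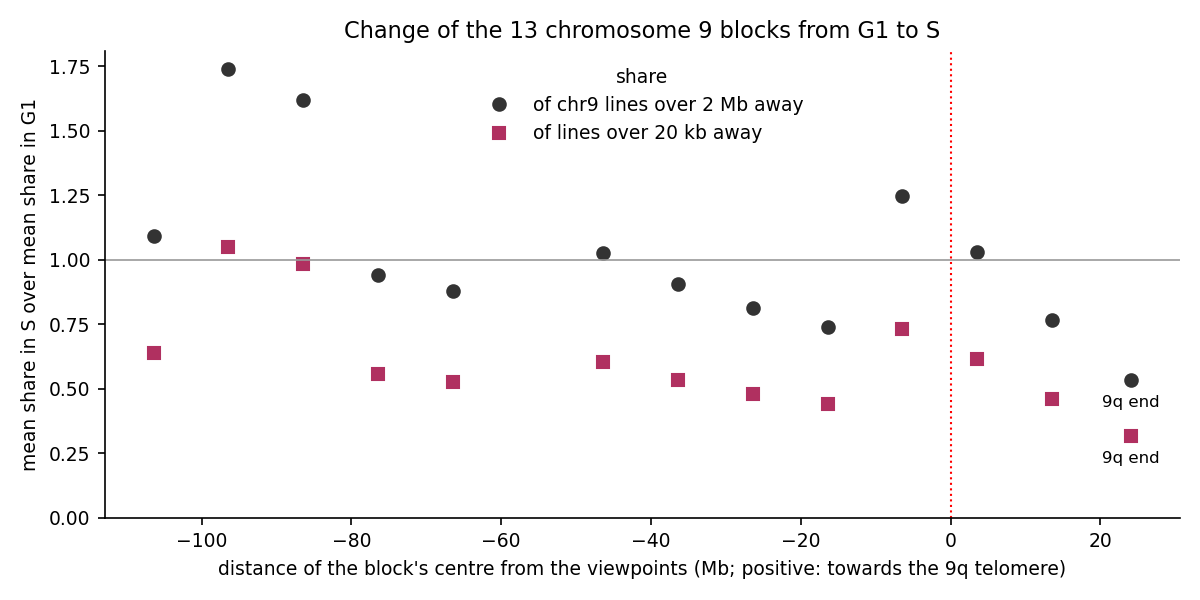
Mean share in S divided by mean share in G1 (vertical axis, 1 means no change) for 13 blocks of about 10 Mb on chromosome 9, by distance of the block's centre from the viewpoints in Mb (horizontal axis, dotted line at the viewpoints). Circles use far chromosome 9 lines and squares all lines over 20 kb away as the denominator; the 9q end is lowest on both, at 0.533 and 0.316.

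Against the same distances on the lower side, the 9q end also lost share. It made up 31.7% of the lines of both stretches together in G1 and 24.04% in S, a difference of -7.71 points, and was lower than both G1 libraries in 28 of 36 S libraries (p = 0.0104, exact permutation test, added after seeing the data and not adjusted). The Proximal means were 43.8% and 32.0% (p = 0.033, exact), the Distal means 29.3% and 25.1% (p = 0.527, exact) and the Outside means 22.2% and 15.0% (p = 0.143, exact). The direction was the same for the 3 primers, and within single primers the difference passed 0.05 for Proximal.

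The course through S phase was not level. For Proximal the mean share of far lines went from 4.62% in G1 to 2.60% in S1 and 1.75% in S2, lay between 2.09% and 2.35% from S3 to S5, and reached 2.92% in S6. For Distal it was 2.68% in G1, stayed between 1.21% and 1.23% from S1 to S4, and was 2.42% in S5 and 1.921% in S6. For Outside it went from 2.31% in G1 to 1.37% in S1 and 0.657% in S2, lay between 1.18% and 1.47% from S3 to S5, and reached 1.61% in S6. The lowest mean was thus in S2 for Proximal and Outside. The fractions accounted for 69.9% of the variance within primers (adjusted p = 2e-05, permutation test of F with 100000 resamples and no direction). The Outside libraries of a fraction lay far apart in S3 to S6 (for example 1.96% and 0.978% in S4), and with Outside alone the fractions did not pass the threshold (adjusted p = 0.215, permutation test).

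**Figure D5:**
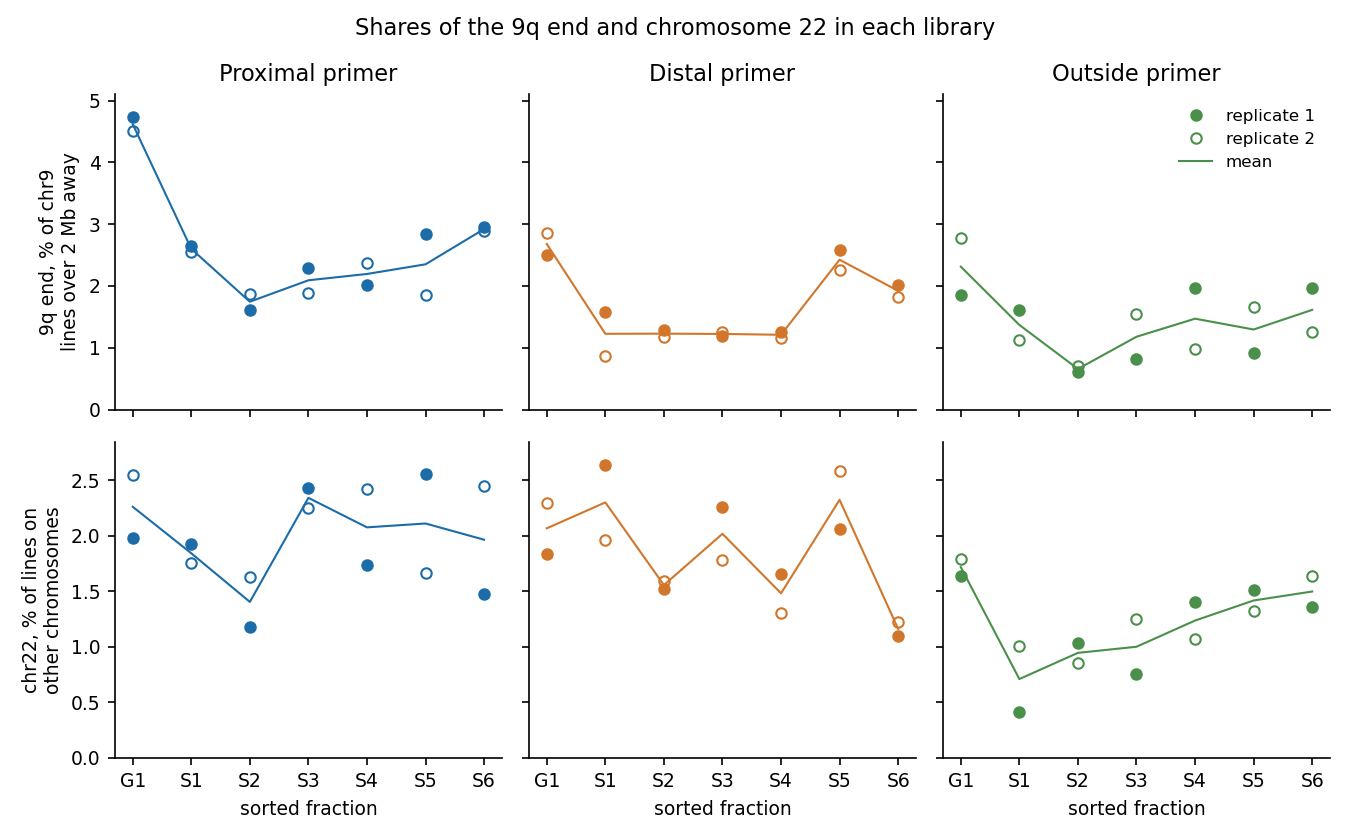
Share of the 9q end among far chromosome 9 lines (top, percent) and of chromosome 22 among trans lines (bottom, percent) in each library, by sorted fraction and primer. Filled and open points are replicates 1 and 2 and lines join their means; the Proximal 9q end share goes from 4.62% in G1 to 1.75% in S2.

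The primers differed in how much of their far contact reached the 9q end. The share was 2.65% ± 0.939 (SD, n = 14 libraries) for Proximal, 1.70% ± 0.638 for Distal and 1.41% ± 0.609 for Outside, and primers accounted for 64.2% of the variance within fractions (adjusted p = 2e-05, permutation test of F). The order followed that of the viewpoints' distances to the 9q end, over 3 viewpoints that lie within 1 Mb of each other. Distal and Outside lay within 1 SD of each other, and pairs of primers were not tested.

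Bin by bin, the fall from G1 to S was widespread above the ABL1 edge and was also seen just below the 9q end. As lines per 10000 far lines in pooled libraries, all 8 bins above the edge were lower in S, with ratios of S to G1 from 0.302 to 0.719 (median 0.467). Of the 3 bins of the 9q end wholly below the edge, 2 were lower in S (0.622 and 0.635). The other, chr9:130600001-131600000, went from 16.4 to 21.9 per 10000, a ratio of 1.33. In chr9:129600001-130600000, partly in the 9q end, the ratio was 0.455. Outside the 9q end it was 0.377 in chr9:128600001-129600000 and 0.503 in chr9:127600001-128600000. From 123600001 to 127600000 it was 0.611 to 0.902. Whether the bins above the edge differed from these was not tested. The second bin above the edge, chr9:134600001-135600000, went from 50.4 (95% interval 40.7 to 61.8) to 23.5 (19.97 to 27.5). The first, chr9:133600001-134600000, went from 37.3 (29.0 to 47.2) to 26.8 (23.01 to 31.0).

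The share of 9q end lines lying above the ABL1 edge was 73.7% in G1 and 63.7% in S, a difference of -9.93 points that did not pass the threshold (adjusted p = 0.150 over 2 shares, exact permutation test), and 28 of 36 S libraries were below both G1 libraries. With the edge moved 1 Mb higher the difference was -15.6 points and passed it (adjusted p = 0.0230, exact permutation test). The change of the 9q end between G1 and S was thus not shown to differ across the ABL1 edge itself.

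In the limma model of log2 scaled lines per 1 Mb bin, fitted over all far bins of chromosome 9, no bin of the 9q end reached a mean of 10 lines per library. Without that filter 12 bins of the 9q end were tested per primer, and 0 passed for any of them at an adjusted p below 0.05, against 0% of 116 bins tested for Proximal and 0.84% of 119 for both Distal and Outside. At an unadjusted p below 0.05, 2, 1 and 4 of the 12 passed. The log2 change was negative in 11 of 12 bins for each primer, with a median of -1.23 for Proximal, -0.72 for Distal and -0.96 for Outside, beside -0.07, -0.19 and -0.18 over all bins. Scaled to all lines over 20 kb away, 9 Proximal, 5 Distal and 6 Outside bins of the 12 were lower in S, against 30.2%, 56.3% and 27.7% of all bins tested (limma, adjusted p below 0.05). For Distal the share of these bins called was thus no larger than that of all bins.

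Chromosome 22 showed a weaker difference between G1 and S. As a percentage of trans lines, Proximal had 1.98% and 2.54% in G1 against 1.18% to 2.55% in S (median 1.84%). Distal had 1.84% and 2.30% against 1.10% to 2.63% (median 1.72%). Outside had 1.64% and 1.79% against 0.410% to 1.64% (median 1.16%). The groups overlapped for Proximal and Distal, and all 12 Outside S libraries were below both G1 libraries. The mean fell by 0.38 points, from 2.01% to 1.63%, which did not pass the threshold after adjustment over 24 chromosomes (p = 0.0467, adjusted p = 0.374, exact permutation test). None of these chromosomes passed it (0%), and 3 had an unadjusted p below 0.05. The ratio of S to G1, 0.810, was the lowest of the chromosomes other than 9 that had lines in G1.

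As a share of all lines over 20 kb away, chromosome 22 went from 0.295% to 0.192% (difference -0.103 points, lower than both G1 libraries in 33 of 36 S libraries, adjusted p = 0.00127, exact permutation test). On that scale 66.7% of the 24 chromosomes passed the threshold, as trans lines together went from 14.6% to 11.9% in the pooled libraries. The ratio for chromosome 22 was 0.650, against a median of 0.787. The call was lost when positions with 5 or more lines in 1 library were left out (adjusted p = 0.254) and within each primer alone.

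Both sides of BCR were lower in S on average, without passing 0.05. Below the edge the share of trans lines was 0.949% in G1 and 0.858% in S (p = 0.556, exact permutation test). Above it the share was 1.06% and 0.774% (p = 0.0591), and for Outside alone it fell by 0.58 points (p = 0.022, exact). These 2 tests were added after seeing the data. The share of chromosome 22 lines lying below the edge was 47.0% in G1 and 53.8% in S, a difference of 6.77 points that did not pass (adjusted p = 0.295, exact permutation test). By primer it was 0.86 points for Proximal, -0.89 for Distal and 20.3 for Outside, and it turned to -1.57 points with 5 Mb on each side of the edge. It was 13.6 points with the edge 1 Mb lower (adjusted p = 0.0750, exact permutation test). It also moved to 3.18 points without Outside G1 replicate 2, 3.41 without Distal G1 replicate 2 and 10.4 without Outside G1 replicate 1.

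The BCR step was present in both phases. In G1 the bin below the edge held 41 lines and the bin above it 1, and in S they held 104 and 18. With 1 line in the upper bin the G1 ratio of 41.0 is poorly bounded (6.96 to 1658), while the S ratio was 5.78 (3.48 to 10.1), so the intervals overlapped. Per 10000 trans lines, the bin below the edge went from 37.0 (26.6 to 50.2) in G1 to 18.7 (15.3 to 22.6) in S. The difference was largest for Proximal, at 68.1 (42.7 to 103) and 19.4 (13.3 to 27.4). The Outside values were 27.02 (13.5 to 48.3) and 17.1 (11.96 to 23.6), and the Distal values were 21.2 (9.17 to 41.8) and 19.9 (13.9 to 27.5). The next bin away from BCR, chr22:21600001-22600000, went the other way, from 9.94 (4.96 to 17.8) to 17.8 (14.4 to 21.6) in the pooled libraries. By primer it went from 3.10 to 26.0 for Proximal and from 4.91 to 11.4 for Outside but from 21.2 to 17.7 for Distal, and 8 of the 11 G1 lines came from 1 Distal library. The intervals treat each pooled line as separate. In the 2 Proximal G1 libraries, the 32 and 41 chromosome 22 lines fell on 19 and 23 distinct positions. The changes of these bins were not tested.

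The chromosome 22 share of trans lines was lowest in a different fraction for each primer. The lowest mean was 1.40% in S2 for Proximal, 1.16% in S6 for Distal and 0.709% in S1 for Outside. Outside means then went from 0.945% in S2 to 1.497% in S6. The fractions accounted for 29.4% of the variance within primers (adjusted p = 0.0613, permutation test of F), which passed without any 1 of 8 libraries (adjusted p from 0.0204 to 0.0493, permutation test). These were Proximal G1 and Outside S1, Distal S1 and Outside S3 of replicate 1, and Proximal S4, S5 and S6 and Outside S6 of replicate 2. As a share of all lines over 20 kb away, the fractions of chromosome 22 accounted for 44.2% of the variance and passed (adjusted p = 0.00365, permutation test of F), though not with distinct positions (adjusted p = 0.0534) or with Proximal or Outside alone. The primers differed in the share of trans lines, with 2.00% ± 0.443 (SD, n = 14) for Proximal, 1.84% ± 0.484 for Distal and 1.22% ± 0.386 for Outside (47.4% of the variance within fractions, adjusted p = 4e-05, permutation test of F).

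Single positions carried little of either region. On chromosome 22 the lines fell on 825 positions, 639 of them with 1 line, and the most frequent, chromosome 22 position 39098420, had 8 lines from 7 libraries. Position 16443982 had 6 lines from 3 libraries, 28003568 had 6 from 6, 17334336 had 6 from 1 library and 17925547 had 5 from 3. In the 9q end the lines fell on 1190 positions, 865 of them with 1 line. The most frequent were 130746872, with 9 lines from 7 libraries, and 140592619, with 9 lines from 1 library. Positions 133317840, 135568158 and 130047657 had 8, 7 and 6 lines, each from 1 library. Repeats within 1 library can be separate molecules or copies of 1 molecule, which cannot be told apart here.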

How the data were processed

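As the labels' protocols state, sorted K562-FUCCI cells were fixed and digested with DpnII, and fragments beside each viewpoint were captured by primer extension. Tools and build in the submitters' processing notes are cutadapt, bedtools and hg19. The aligner is not given in the sources used here, nor is the handling of barcodes. The deposited files list 1 position per line with no other value, and the authors brought each to 16350 lines in an undescribed step. Members, edges, lists and tests were chosen with earlier results of these data known. Named regions were the bins within 5 Mb of each edge, the bins of most and fewest lines, and up to 5 positions per region. Shares were compared by exact permutation within primer (753571 arrangements) with Benjamini-Hochberg adjustment and a threshold of 0.05. Bins used log2(scaled lines + 1) and limma 3.58.1 in R 4.3.3. Python 3.11.15 with numpy 2.4.6 and scipy 1.17.1 was used otherwise. Tests, the step fit and the bin model were tested on simulated data.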

Additional observations from a re-analysis of the deposited data

How the results depend on the processing

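Depth limits most results, since 1 library held at most 54 lines on chromosome 22 and 131 in the 9q end. Scaling by DpnII sites and lengths from a reference were not run, since no genome of this build was used here. The window of 2 Mb at ABL1, the division of chromosome 22 at BCR and the comparison with lower-side distances were chosen after seeing the data. Causes of the changes below were not tested.

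The fall of the 9q end as a share of all lines over 20 kb away passed under every alternative run (adjusted p at most 0.0204). As a share of far lines it missed the threshold with S4 alone (-1.58 points), Proximal alone (-2.30) and Outside alone (-1.05). It passed with Distal alone (-1.14). Each of these runs used fewer libraries than the main test. The chromosome 22 share of all lines over 20 kb missed it without repeated positions (-0.0970 points) and with Proximal (-0.110), Distal (-0.0853) or Outside alone (-0.115), whereas its share of trans lines passed only with that other denominator (-0.103). The share of chromosome 22 lines below BCR turned to -0.893 points with Distal alone and to -1.57 with a 5 Mb flank, and the share of the 9q end above ABL1 passed with the edge 1 Mb higher (-15.6).

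In lines per Mb per 1000 trans lines, chromosome 22 passed against chromosome 19 with length from first to last line (0.0752), distinct positions (0.0490) or repeated positions left out (0.0593). Against chromosome 20 it passed with length from first to last line (0.0571) and turned with Outside alone (-0.0753). Against chromosome 21 it missed with Proximal alone (-0.0393) or G1 alone (-0.0515) and turned with Distal alone (0.0339). The stretch below BCR differed from chromosomes 19, 20 and 21 by 0.670, 0.653 and 0.530, and the stretch above it from chromosomes 19 and 20 by -0.128 and -0.145.

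The log2 BCR step was 5.75 with Proximal, 2.14 with Distal and 5.36 with G1 alone, and 2.19 and 2.03 with flanks of 3 and 5 Mb. The log2 ABL1 step was 0.263 with Proximal and 1.42 with Outside alone, 0.445 with a 3 Mb flank and -0.415 with 5 Mb. Among the fractions, the chromosome 22 share of lines missed the threshold with distinct positions (31.3% of variance), Proximal (64.3%) or Outside alone (75.2%), its share of trans lines passed with Distal alone (78.6%), and the 9q end missed with Outside alone, at 61.9% for far lines and 84.4% for all lines. The limma model called 26 Proximal, 41 Distal and 30 Outside bins when scaled to lines over 20 kb, 4 Proximal bins with distinct positions, 0 Distal and 0 Outside bins of 2 Mb, and 0 Outside bins without the trend, against 0, 1 and 1.

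With 1 library left out, the difference from chromosome 19 ranged from 0.0441 to 0.0661, the variance between fractions in the chromosome 22 share of trans lines from 25.3% to 36.1%, and the bins called from 0 to 2 for Proximal and 1 to 2 for Distal. Of 840 such values, 826 were counted as unchanged. For tested results this means the same direction and the same side of the threshold. Step sizes and counts of bins called, which have no p-value of their own, were judged by how far they moved.

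Over 33 features, deviations of equal replicate number had a mean correlation of 0.0745 (-0.449 to 0.614, 210 pairs of groups). Line totals did differ by replicate number. Lines over 20 kb away were fewer in replicate 2 in every S fraction of Distal and Outside, for example 14337 and 13860 in Outside S6. G1 of both primers went the other way, and Proximal fractions were mixed. Trans lines were fewer in replicate 2 in most S groups, for example 1510 and 1225 in Distal S4. A batch effect was not tested. A replicate block changed no call of a share, with the 9q end still -1.496 points of far lines. With replicate 2 alone chromosome 22 passed against chromosome 19 (0.0935), and against chromosome 21 neither replicate 1 (-0.0842) nor replicate 2 alone (-0.0976) passed.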

Other observations

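Other trans bins with many lines lay outside chromosome 22. The bin from 101 to 102 Mb on chromosome 2 held 300 lines, of which 265 were at 1 position. The bin from 91 to 92 Mb on chromosome 13 held 80 lines, with at most 4 at any position, and ranked 14 of 2789 trans bins. Neither was tested.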
